A study of Mus musculus with 28 samples.

Results

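Among 14 plasma cell tumors that grew after adoptive transfer of premalignant B cells in mice, 3 had few transcripts of blood vessels and connective tissue, and they are called stroma-poor here. These were tumors 5, 7 and 9 in the order of the series. The other 11 tumors of this kind are called stroma-rich. The whole series holds 28 samples measured on Illumina arrays, with 11 spontaneous plasma cell tumors and 3 samples of normal splenic B cells beside the 14. The 3 were selected on the measured levels of endothelial markers, which lay near those of normal B cells, so the endothelium list and the 4 markers Egfl7, Plvap, Dcn and Sparc are described below without a test. A test of other genes sets the difference against the spread among the same tumors that were sorted, and a call is therefore no independent evidence that the tumors form 2 kinds.

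The stroma-poor tumors and the stroma-rich tumors were whole tumor tissue from BALB/c background mice, with the strain label C.iMyc/IL-6, which joins an inserted Myc gene and an IL-6 transgene. All 14 were labelled as oil granuloma, the inflammatory tissue that forms around injected oil. The stroma-poor tumors were taken at 107, 107 and 111 days and the stroma-rich tumors at 105 to 158 days (median 111). The spontaneous tumors carried the same strain label and came from lymph nodes at 40 to 162 days, and the normal B cells came from spleens of BALB/c mice at 90 days. The labels name neither the promoter of the transgene nor whether the tumors came from separate animals, so p-values reflect the spread among samples, which may be technical in part. Mean age was 108.3 days in stroma-poor and 118.4 days in stroma-rich tumors (exact permutation test over 364 splits, two-sided p = 0.379).

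A tumor mass holds more than tumor cells. Endothelial cells line its vessels, pericytes and smooth muscle cells wrap them, and fibroblasts lay down collagens and proteoglycans. Oil granulomas are rich in macrophages and neutrophils and are a known site of plasma cell tumor growth in BALB/c mice, where local IL-6 is a growth factor. In whole tissue, fewer cells of a type and less RNA per cell cannot be told apart.

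Array quality differed among the tumors. Tumor 5 had 13669 detected probes (detection p under 0.05), tumor 7 had 16284 and tumor 9 had 14868, against 11544 to 16827 in stroma-rich tumors. Tumors 5 and 9 both lay below every stroma-rich tumor except tumor 1, the next lowest being tumor 3 with 15299. The means, 14940 in stroma-poor and 15690 in stroma-rich tumors, had a two-sided exact permutation p of 0.456. Stroma-rich tumor 1 had the fewest detected probes of all and also carried transcripts of the exocrine pancreas, with 18 of 18 such genes detected. Because tumor 5 stands apart in several ways, the counts of calls per gene list are given for all 3 tumors and, for most lists, for tumors 7 and 9 alone. In the second fit tumor 5 keeps a mean of its own.

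The mean level of 30 endothelial genes separated the tumors. It was 5.34 log2 units in tumor 5, 5.46 in tumor 7 and 5.33 in tumor 9, against 5.97 to 8.20 with a median of 7.02 in stroma-rich tumors and 5.09 to 5.21 in normal B cells. All levels below are such background-corrected, quantile normalized log2 array intensities. Tumor 7 was the member just inside the boundary and tumor 11, at 5.97, the one just outside. Of the 30 genes, 9, 11 and 11 were detected in tumors 5, 7 and 9, against 20 to 29 in stroma-rich tumors and 4 to 10 in normal B cells. The 11 spontaneous tumors lay between 7.12 and 7.68, a narrower range.

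The 4 markers named for this split did not all sit at the normal B cell level. Plvap, a protein of the diaphragms that span endothelial pores, was at 4.49, 4.83 and 4.81 log2 units in tumors 5, 7 and 9, against 7.68 to 11.38 (median 9.33) in stroma-rich tumors and a median of 4.92 in normal B cells. It was detected in none of the 3 tumors and was at least 18.3-fold lower than in stroma-rich tumors, a lower bound that raises undetected arrays to the weakest signal they detected. Egfl7, a matrix factor secreted by endothelium, was at 6.15, 8.20 and 8.59 in stroma-poor tumors, against 9.81 to 11.57 in stroma-rich tumors and a median of 4.82 in normal B cells. Tumors 7 and 9 thus stayed well above normal B cells for Egfl7. Sparc, a collagen-binding matrix protein, was at 6.92, 5.80 and 5.84, against 9.57 to 11.58 in stroma-rich tumors and 4.50 in normal B cells. Dcn, the collagen-binding proteoglycan decorin, was at 9.74, 8.50 and 8.90, against 10.29 to 13.44 in stroma-rich tumors and 4.45 in normal B cells. For all 4 genes the 3 tumors lay below every stroma-rich tumor, yet Dcn was still several log2 units above normal B cells. The label stroma-poor therefore means less stromal RNA than in the other tumors, not none.

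**Figure D1:**
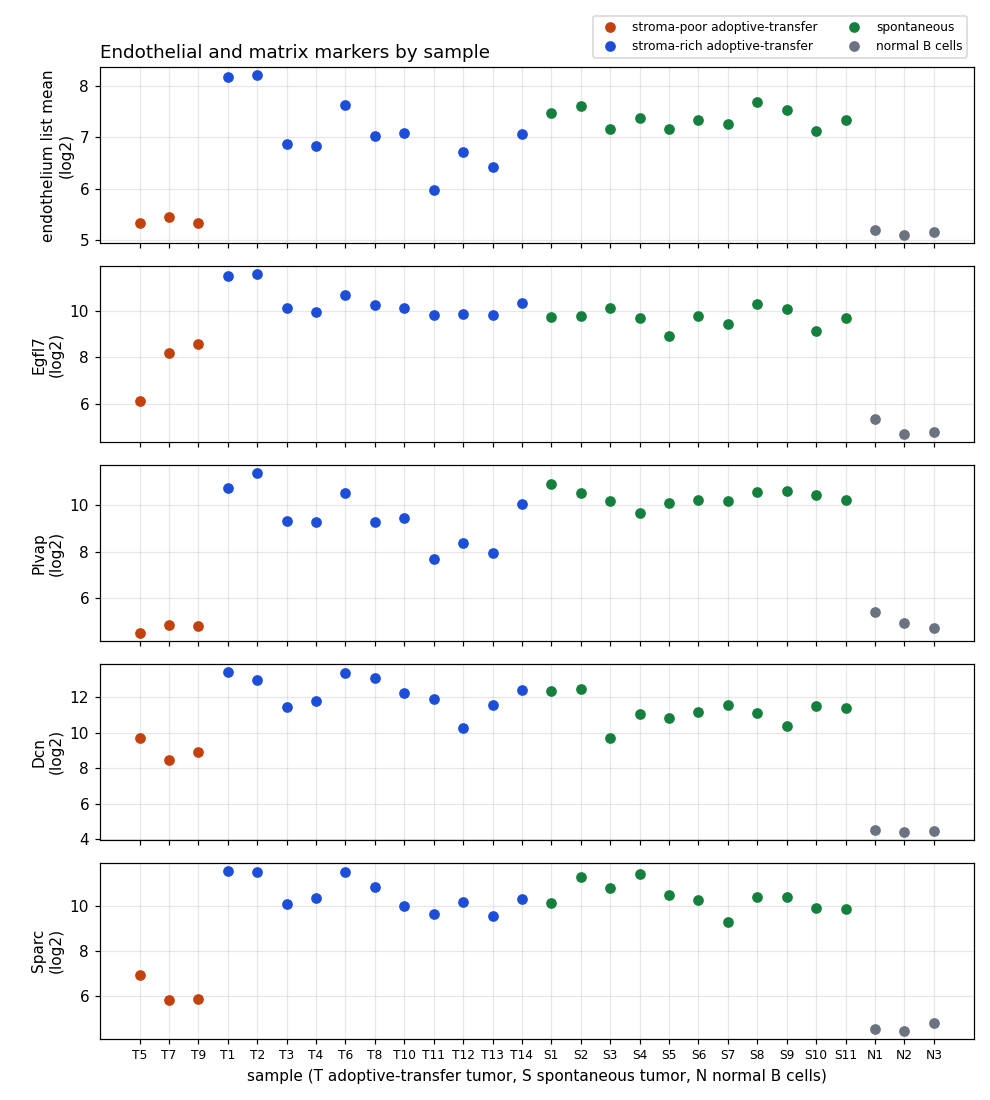
Level (log2) of the endothelium list mean and of Egfl7, Plvap, Dcn and Sparc in each of the 28 samples, 1 point per sample. Stroma-poor tumors 5, 7 and 9 are on the left, followed by the 11 stroma-rich, the 11 spontaneous and the 3 normal samples; Plvap lies at the normal level in the 3 stroma-poor tumors, while Dcn stays between the normal and the stroma-rich levels.

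Within the endothelium list the gap was uneven. Esam, a junction adhesion molecule, was at 6.38, 4.62 and 4.73 log2 units in stroma-poor tumors, against 7.77 to 10.90 in stroma-rich tumors. The sialomucin Emcn was at 5.56, 4.62 and 4.61, against 7.12 to 9.79, and Ramp2, a receptor partner needed for adrenomedullin signalling, was detected in none of the 3 and was at least 9.28-fold lower. Angpt2, the vessel-destabilising ligand of Tek, was at 6.05, 5.30 and 5.65, against 6.57 to 9.15. These genes lay below all stroma-rich tumors. Other members overlapped. Icam2, which leukocytes also carry, was at 8.64, 9.74 and 9.64, against 8.31 to 10.09 in stroma-rich tumors. The lymphatic and macrophage receptor Lyve1 was at 5.97, 8.97 and 6.28, against 4.67 to 7.41, with tumor 7 above every stroma-rich tumor. Vwf, the clotting factor of endothelium and platelets, was at 8.40 in tumor 5 but at 5.01 and 5.36 in tumors 7 and 9, against 5.20 to 9.53 in stroma-rich tumors. In all, 15 of the 30 members lay below every stroma-rich tumor in all 3 stroma-poor ones, and 0 lay above. Over all 10600 genes tested, 251 (2.37%) lay below every stroma-rich tumor in this way and 164 (1.55%) above, and since the list defined the split nothing is read from the comparison.

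Across the 10600 genes detected on at least 3 of the 14 arrays, limma called 453 (4.27%) at a Benjamini-Hochberg adjusted p under 0.05, 276 higher (2.6%) and 177 lower (1.67%) in stroma-poor tumors. For tumors 7 and 9 it called 150 (1.42%), 59 higher (0.557%) and 91 lower (0.858%). Outside the endothelium list and the 4 markers, which chose the tumors, 439 genes were called, 276 higher and 163 lower, and 140 for tumors 7 and 9, 59 higher and 81 lower. These lower calls included genes of vessel walls and matrix, and the higher calls included genes of leukocytes. Some genes entered the test through a single side: 15 of the 276 higher genes were detected in no stroma-rich tumor and 65 of the 177 lower genes in no stroma-poor tumor. Among called members of the lists below, this holds for 3 of the 6 pericyte and smooth muscle genes and 5 of the 9 collagens. It also holds for 4 of the 5 fibroblast identity genes, 4 of the 10 matrix glycoproteins and 1 of the 9 matrix enzymes. Against only tumors 6 and 8, the stroma-rich tumors taken at 107 and 111 days, 82 genes were called lower and 0 higher. Without background correction 203 were called higher and 72 lower, a share of 73.8% higher against 60.9% in the main fit, with age as a covariate that share was 49.6%, and with the deposited log2 values it was 71.2%. Leaving out tumor 7 gave 245 calls and leaving out tumor 9 gave 961.

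Genes of pericytes and smooth muscle were lower in stroma-poor tumors. Of 14 tested, 6 fell and 0 rose, and in tumors 7 and 9 alone 4 fell. The median log2 difference was -1.67 (-1.50 with undetected genes at their bound) beside -0.06 for all genes. Of the 6 detected in at least 1 stroma-poor tumor, 3 fell, and 3 fell in tumors 7 and 9 alone. Acta2, smooth muscle actin, was at 7.60, 6.86 and 5.94 log2 units in stroma-poor tumors, against 10.64 to 13.72 (median 11.42) in stroma-rich tumors. The groups did not overlap, and the log2 difference was -5.03 ± 0.55 (SE, 3 and 11 tumors; limma adjusted p = 0.00011). Outside the list, Actg2, the gamma actin of visceral smooth muscle, was detected in none of the 3 tumors. It was at 4.29, 4.53 and 4.52, against 7.37 to 12.64, and was at least 25.2-fold lower. Actg2 passed the detection filter only through the stroma-rich arrays, so no test of it is given. Mylk, the kinase that activates smooth muscle myosin, was at 6.33, 4.87 and 5.12, against 9.04 to 12.47, a difference of -5.17 ± 0.59. With detection in 1 stroma-poor tumor, Mylk needed stroma-rich arrays to pass the filter, so no test of it is given. The other called members were led by the tropomyosin Tpm2, the myosin heavy chain Myh11 and desmin (Des), whose values also did not overlap. Tpm2 and Myh11 were detected in none of the 3 tumors and were at least 7.84-fold and 5.24-fold lower. They passed the filter only through the stroma-rich arrays, as Actg2 did. In tumors 7 and 9 alone Tpm2, Myh11 and Des were not called. Without background correction 1 of the 14 was called lower, and with the deposited log2 values 2.

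Igfbp7, a matrix-bound binding protein of insulin-like growth factors that vessels express, had the smallest adjusted p among the named genes. It was at 7.03, 6.63 and 6.17 in stroma-poor tumors, against 11.18 to 13.06 (median 12.10) in stroma-rich tumors and a median of 6.08 in normal B cells. The difference was -5.46 ± 0.34 log2 units, a 44.1-fold lower level (adjusted p = 2.29e-07). Tumors 5, 7 and 9 thus lay near normal B cells while every stroma-rich tumor was far above. Aqp1, the water channel of many endothelia and red cells, was at 6.27, 4.90 and 4.91, against 7.57 to 12.53, with a difference of -4.80 ± 0.84. Aqp1 was detected in 1 stroma-poor tumor and has no test for the same reason as Mylk.

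Collagen genes were low too. Of 15 tested, 9 fell and 0 rose, with a median of -2.27, and 7 fell in tumors 7 and 9 alone. Of the 6 detected in at least 1 stroma-poor tumor, 4 fell, and 3 fell in tumors 7 and 9 alone. Col4a1 and Col4a2 encode the chains of the main type IV collagen of vessel basement membranes. Col4a1 was at 6.31, 4.73 and 4.66 log2 units in stroma-poor tumors, against 8.78 to 12.23 (median 9.67) in stroma-rich tumors, a difference of -4.84 ± 0.58. Col4a2 was detected in none of the 3, at 5.22, 4.66 and 4.76, against 7.57 to 10.61, and was at least 14.0-fold lower. Both genes were thus low in the same tumors. Among the fibrillar collagens, which bear tension in connective tissue, Col1a1 was at 4.86, 4.96 and 4.81, against 7.22 to 9.26. Col5a1 was at least 11.4-fold lower. Col18a1, whose fragment endostatin restrains vessels, was at least 11.3-fold lower. Col4a2, Col1a1, Col5a1 and Col18a1 passed the detection filter only through the stroma-rich arrays, so no test of them is given. Col4a1, detected in 1 stroma-poor tumor, also needed stroma-rich arrays to pass and has no test. Col1a2 was at 4.68, 5.22 and 5.36, against 4.92 to 6.44, and was not called (adjusted p = 0.355).

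Col4a1 and Col4a2 lie head to head and share a promoter, which is shown because both genes were low together. The RefSeq windows (GRCm38.p6) run 250 bases upstream to 50 bases downstream of each gene's start, 5′ to 3′ on the gene's own strand. The gene starts are separated by 20 bases, and the 78 bases that the windows share, on opposite strands, are in capitals. Col4a1 is on the minus strand at chr8:11312777-11313076 and Col4a2 on the plus strand at chr8:11312555-11312854.
Col4a1: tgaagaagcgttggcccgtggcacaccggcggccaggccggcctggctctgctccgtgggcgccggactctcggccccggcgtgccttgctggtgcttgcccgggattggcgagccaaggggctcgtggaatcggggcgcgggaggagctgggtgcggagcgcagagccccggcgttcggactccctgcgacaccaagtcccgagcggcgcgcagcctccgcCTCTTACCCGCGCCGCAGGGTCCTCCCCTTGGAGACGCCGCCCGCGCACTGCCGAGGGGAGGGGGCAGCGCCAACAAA
Col4a2: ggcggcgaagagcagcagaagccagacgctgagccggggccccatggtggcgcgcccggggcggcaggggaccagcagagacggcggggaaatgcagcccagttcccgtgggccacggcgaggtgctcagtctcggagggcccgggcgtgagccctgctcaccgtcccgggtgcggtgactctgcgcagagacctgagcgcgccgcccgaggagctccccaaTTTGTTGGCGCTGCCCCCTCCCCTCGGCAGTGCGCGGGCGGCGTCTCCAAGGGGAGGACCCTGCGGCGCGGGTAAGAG

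Proteoglycans, glycoproteins and matrix enzymes followed. Of 21 matrix glycoproteins and proteoglycans other than the markers Dcn and Sparc, 10 fell and 0 rose, with a median of -1.57 (-1.22 with bounds), and 6 fell in tumors 7 and 9 alone. With Dcn and Sparc counted, 13 members were detected in at least 1 stroma-poor tumor. Of those 13, 8 fell, and 6 fell in tumors 7 and 9 alone. Bgn, the small proteoglycan biglycan, was at 6.71, 6.59 and 6.28 log2 units in stroma-poor tumors, against 10.64 to 12.74 (median 11.48) in stroma-rich tumors, a difference of -5.05 ± 0.40 (adjusted p = 2.55e-06). Mgp, an inhibitor of calcification in vessel walls, was at 7.79, 5.83 and 5.63, against 9.58 to 12.23, a difference of -4.36 ± 0.52 (adjusted p = 0.000181). The groups did not overlap for either gene. Lum, the proteoglycan lumican, was at 5.48, 4.65 and 5.69, against 5.30 to 11.53, and although it counts among the 10 its groups overlapped. Lum was not called in tumors 7 and 9 alone. With detection in 2 stroma-poor tumors it needed stroma-rich arrays to pass the filter, so no test of it is given. Fn1, fibronectin, which macrophages also make, was at 9.10, 9.81 and 8.16, against 6.17 to 9.65, and was not called (adjusted p = 0.448).

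Of 21 matrix enzymes and inhibitors, 9 fell and 0 rose, with a median of -1.74, and 9 fell in tumors 7 and 9 alone. Of the 16 detected in at least 1 stroma-poor tumor, 8 fell, and 8 fell in tumors 7 and 9 alone. Serpinh1, the collagen chaperone HSP47, was at 6.35, 5.80 and 5.86 in stroma-poor tumors, against 9.40 to 11.11 (median 10.18) in stroma-rich tumors, a difference of -4.20 ± 0.32 (adjusted p = 2.54e-06). The gelatinase Mmp2, detected in 1 stroma-poor tumor, has no test for the same reason as Mylk. It was at 4.80, 4.69 and 5.29, against 7.98 to 10.45. Timp1, an inhibitor of such proteases, was at 7.83, 6.73 and 5.52, against 7.89 to 11.64 (adjusted p = 0.00998), so tumor 5 lay just under the lowest stroma-rich tumor. The list thus included both a protease and its inhibitor among the genes that fell.

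Of 16 fibroblast identity genes, 5 fell and 0 rose, with a median of -1.41 (-1.04 with bounds), and 2 fell in tumors 7 and 9 alone. Of the 9 detected in at least 1 stroma-poor tumor, 1 fell, and 1 fell in tumors 7 and 9 alone. Pdgfra, the platelet-derived growth factor receptor of fibroblasts, was detected in none of the 3 and was at least 4.55-fold lower. Cxcl12, the chemokine that holds plasma cells in their bone marrow niche, was at 4.75, 5.01 and 4.66, against 5.59 to 10.17 (median 8.26). It was at least 6.70-fold lower. Pdgfra and Cxcl12 passed the detection filter only through the stroma-rich arrays, so no test of them is given. Rarres2, the chemoattractant chemerin, was at 6.66, 5.22 and 5.94, against 8.11 to 10.59 (adjusted p = 0.000247). Without background correction 1 of these 16 was called, as with the deposited log2 values, and leaving out tumor 7 left 2. Of 9 mesothelium genes, markers of the peritoneal lining, 0 were called in either direction, with a median of -0.52.

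Vcam1, the adhesion molecule by which stroma and endothelium hold lymphocytes, was at 4.76, 5.15 and 4.80 in stroma-poor tumors, against 7.49 to 11.09 in stroma-rich tumors, a difference of -4.25 ± 0.49. Normal B cells, at 11.37 to 11.64, were above every stroma-rich tumor, so here the stroma-poor tumors were not close to them. Ccn2, a matricellular target of TGF-beta, was at 5.72, 4.65 and 4.84, against 8.26 to 11.12, a difference of -4.43 ± 0.47. Vcam1 and Ccn2 were each detected in 1 stroma-poor tumor and needed stroma-rich arrays to pass the filter, so no test of them is given. Of 19 TGF-beta and BMP response genes 3 fell, Ccn2 with the latent TGF-beta binding proteins Ltbp3 and Ltbp4, and 1 rose, Tgfbi. In tumors 7 and 9 alone 2 fell and 0 rose. Of the 16 detected in at least 1 stroma-poor tumor, which leave out Ltbp4, 2 fell. Of 22 angiogenic factors 3 fell and 0 rose: Cxcl12, Pdgfa, which recruits mesenchymal cells, and Sema3f, a guidance cue, and 1 fell in tumors 7 and 9 alone. Of the 12 detected in at least 1 stroma-poor tumor, which leave out Cxcl12, 2 fell. Vegfa, the main growth factor for vessels, was at 8.26, 8.90 and 8.69, against 7.19 to 9.98, and was not called (adjusted p = 0.785). Cav1, the coat protein of caveolae and abundant in endothelium, was the single called member of the plasma cell identity list, at 6.20, 5.05 and 5.18, against 7.39 to 10.21. Cav1 was also detected in 1 stroma-poor tumor, and no test of it is given.

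**Figure D2:**
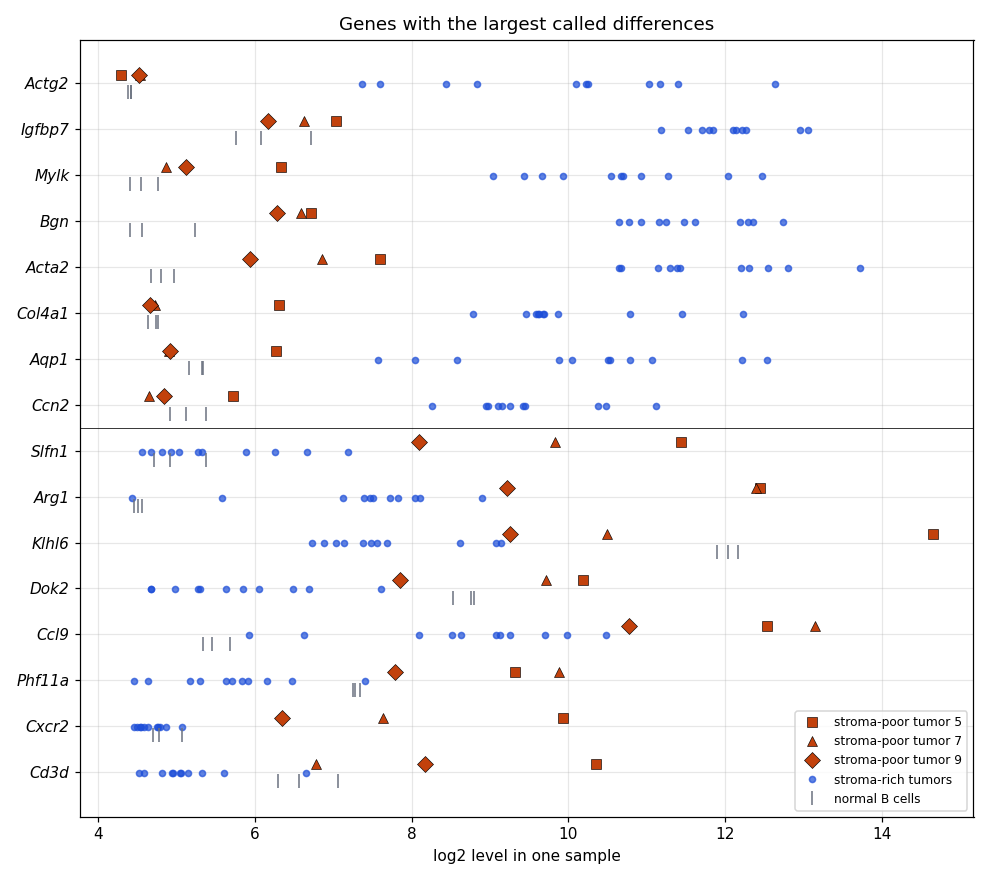
Level (log2) in each adoptive-transfer tumor and normal sample of the 8 called genes with the lowest and the 8 with the highest difference among genes outside the endothelium list and the 4 markers. Squares, triangles and diamonds are stroma-poor tumors 5, 7 and 9, blue circles the 11 stroma-rich tumors and grey ticks normal B cells; by the rule that named them the groups do not overlap.

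Some leukocyte genes were higher in stroma-poor tumors. Of 11 neutrophil genes detected in at least 1 stroma-rich tumor, 4 rose and 0 fell, with a median of 1.68, and in tumors 7 and 9 alone 0 rose. With Cxcr2, which no stroma-rich array detected, 11, 12 and 10 neutrophil genes were detected in tumors 5, 7 and 9, against 2 to 11 in stroma-rich tumors. Cxcr2, the chemokine receptor that draws neutrophils into tissue, was at 9.93, 7.64 and 6.35 log2 units in tumors 5, 7 and 9, against 4.46 to 5.07 in stroma-rich tumors, and was at least 6.87-fold higher. It passed the detection filter only through the stroma-poor arrays, so no test of it is given. S100a9, a subunit of the neutrophil protein calprotectin, was at 14.41, 11.87 and 9.56, against 4.63 to 10.66 (median 7.70) in stroma-rich tumors, a difference of 4.39 ± 1.16 (adjusted p = 0.042). Tumor 9 lay inside the stroma-rich range, and in tumors 7 and 9 alone the adjusted p was 0.405. The receptor Csf3r, through which the neutrophil growth factor acts, was at 12.01, 8.06 and 6.46, against 4.79 to 6.86 (adjusted p = 0.0187, or 0.137 in tumors 7 and 9 alone). Each of these genes was highest in tumor 5 and lowest, among the 3, in tumor 9.

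Of 33 macrophage genes detected in at least 1 stroma-rich tumor, 3 rose and 0 fell, with a median of 1.00, and in tumors 7 and 9 alone 1 rose. With Itgam, which no stroma-rich array detected, the stroma-poor arrays detected 30, 34 and 29 macrophage genes, against 22 to 33 on stroma-rich arrays. Arg1, the arginase of alternatively activated macrophages, was at 12.45, 12.39 and 9.21 in stroma-poor tumors, against 4.43 to 8.90 (median 7.50) in stroma-rich tumors, a difference of 4.07 ± 0.78 (adjusted p = 0.00645, or 0.0813 in tumors 7 and 9 alone). Itgam, the CD11b integrin chain, was at 6.49, 6.58 and 5.36, against 4.32 to 5.03, and was at least 1.94-fold higher, with no test for the same reason as Cxcr2. Fcgr1, the high-affinity IgG receptor, was at 8.95, 8.42 and 6.79, against 4.69 to 6.73 (adjusted p = 0.00636, or 0.0813 in tumors 7 and 9 alone). The third to rise, the scavenger receptor Msr1, overlapped with the stroma-rich tumors. The list mean was 8.82, 9.82 and 7.51 in tumors 5, 7 and 9, against 6.88 to 8.72 in stroma-rich tumors, so tumor 9 was not above them. The F4/80 antigen gene Adgre1 was at 8.23, 10.40 and 8.01, against 6.69 to 9.25, and was not called (adjusted p = 0.255). Gpnmb, which foamy macrophages express, was at 8.81, 10.08 and 7.73, against 8.50 to 12.87, and was not called (adjusted p = 0.191). With Itgam counted, the macrophage calls numbered 13 without tumor 9 and 2 without tumor 7, against 4 with all 3 tumors.

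Of 11 T cell genes tested, 4 rose and 0 fell, with a median of 1.46, and in tumors 7 and 9 alone 3 rose. Of 12 genes with a level, 10, 9 and 12 were detected in tumors 5, 7 and 9, against 5 to 10 in stroma-rich tumors. Cd3g, a chain of the T cell receptor complex, was at 7.29, 7.25 and 7.87 log2 units in stroma-poor tumors, against 4.77 to 5.87 (median 5.26) in stroma-rich tumors, a difference of 2.15 ± 0.27 (adjusted p = 0.000247). Cd3e, another chain, was at 9.05, 6.73 and 7.68, against 4.50 to 5.77, a difference of 2.76 ± 0.39 (adjusted p = 0.000698). Cd3d was at 10.35, 6.78 and 8.17, against 4.52 to 6.65 (adjusted p = 0.00208). All 3 chains lay above every stroma-rich tumor, and each kept its call in tumors 7 and 9 alone (adjusted p = 0.0016 for Cd3g, 0.00746 for Cd3e and 0.0152 for Cd3d). Il7r, the interleukin 7 receptor of resting T cells, was the fourth (adjusted p = 0.0169, or 0.211 in tumors 7 and 9 alone). Ccl5, a chemokine of cytotoxic lymphocytes, was at 9.11, 8.52 and 8.73, against 5.77 to 7.64 (adjusted p = 0.00162, or 0.0179 in tumors 7 and 9 alone). Spontaneous tumors spanned 4.51 to 7.96 for Cd3g, 4.43 to 7.48 for Cd3e, 4.44 to 7.72 for Cd3d and 5.23 to 10.52 for Ccl5. For each of these genes this range overlapped that of the stroma-poor tumors. Normal B cell samples spanned 6.89 to 7.19, 6.73 to 7.62, 6.29 to 7.06 and 8.14 to 8.29 in the same order. Of 4 NK and cytotoxic genes 2 rose, Ccl5 and Klrd1, and in tumors 7 and 9 alone 1 rose. Of 5 dendritic cell genes detected in at least 1 stroma-rich tumor 1 rose, Irf8, and 0 in tumors 7 and 9 alone. Clec9a, a receptor of cross-presenting dendritic cells, was detected in the 3 stroma-poor tumors and in 0 stroma-rich tumors. Of 5 mast cell genes 0 were called, with a median of -0.42.

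Of 19 mature B cell genes detected in at least 1 stroma-rich tumor, 8 rose and 0 fell, with a median of 1.42, and 2 rose in tumors 7 and 9 alone. Ciita and H2-Oa, both of the MHC class II pathway, were detected in the 3 stroma-poor tumors and in 0 stroma-rich tumors. Fcmr, the Fc receptor for IgM, was at 9.35, 8.29 and 7.59 in stroma-poor tumors, against 4.44 to 7.07 (median 5.24) in stroma-rich tumors and 14.40 in normal B cells (adjusted p = 0.00443, or 0.0615 in tumors 7 and 9 alone). Cd40, the receptor for T cell help, was at 7.17, 8.34 and 7.04, against 4.81 to 6.69 (adjusted p = 0.0103, or 0.0347 in tumors 7 and 9 alone). H2-DMb2, which edits peptides on MHC class II, was at 10.62, 8.25 and 8.60, against 4.80 to 7.57 (adjusted p = 0.0139, or 0.182 in tumors 7 and 9 alone). In each case the 3 tumors lay above all stroma-rich tumors and far below normal B cells. The list mean was 8.02, 7.06 and 6.71, against 5.79 to 6.49 in stroma-rich tumors and 11.18 to 11.41 in normal B cells. Bcl2, the survival factor that mature lymphocytes depend on, was at 8.41, 6.31 and 6.38, against 4.58 to 5.50, a difference of 2.11 ± 0.35 (adjusted p = 0.00247), and it was called in tumors 7 and 9 alone (adjusted p = 0.00876). Whether the B cell and T cell transcripts come from host lymphocytes was not tested.

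Among 28 inflammatory cytokine and chemokine genes 8 rose and 3 fell, and in tumors 7 and 9 alone 4 rose and 0 fell. Of the 26 detected in at least 1 stroma-poor tumor, 2 fell. Il1b, the macrophage and neutrophil cytokine interleukin 1 beta, was at 10.86, 8.64 and 7.85, against 5.31 to 7.73, a difference of 3.11 ± 0.51 (adjusted p = 0.00247, and 0.0215 in tumors 7 and 9 alone). Ccl3 and Ccl4, chemokines that draw monocytes and lymphocytes, lay above all stroma-rich tumors. Ccl3 was at 7.70, 10.36 and 7.54, against 4.62 to 7.14 (adjusted p = 0.00636), and Ccl4 at 9.66, 11.71 and 9.81, against 6.28 to 8.81 (adjusted p = 0.00396). In tumors 7 and 9 alone the adjusted p was 0.0131 for Ccl3 and 0.0097 for Ccl4. Il6 itself was at 6.00, 4.54 and 5.38, against 4.53 to 5.34, and was not called (adjusted p = 0.475). From the hypoxia list, Hmox1, the haem-degrading enzyme of macrophages, was at 10.54, 12.33 and 6.70, against 5.69 to 7.62 (adjusted p = 0.0178, or 0.166 in tumors 7 and 9 alone). For Hmox1 tumor 9 lay inside the stroma-rich range.

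Other genes of the highest differences were Slfn1, a growth regulator of lymphoid and myeloid cells, at 11.43, 9.83 and 8.09, against 4.56 to 7.19 (4.28 ± 0.61, adjusted p = 0.000698), and Dok2, an adaptor of blood cell signalling, at 10.18, 9.71 and 7.85, against 4.68 to 7.61 (3.50 ± 0.56, adjusted p = 0.00208). Both were also called in tumors 7 and 9 alone, with adjusted p = 0.00969 for Slfn1 and 0.0271 for Dok2. Klhl6, a gene of B cell germinal centre responses, was at 14.65 in tumor 5 but at 10.49 and 9.25 in tumors 7 and 9, against 6.73 to 9.14, and it was not called without tumor 5 (adjusted p = 0.106).

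**Figure D3:**
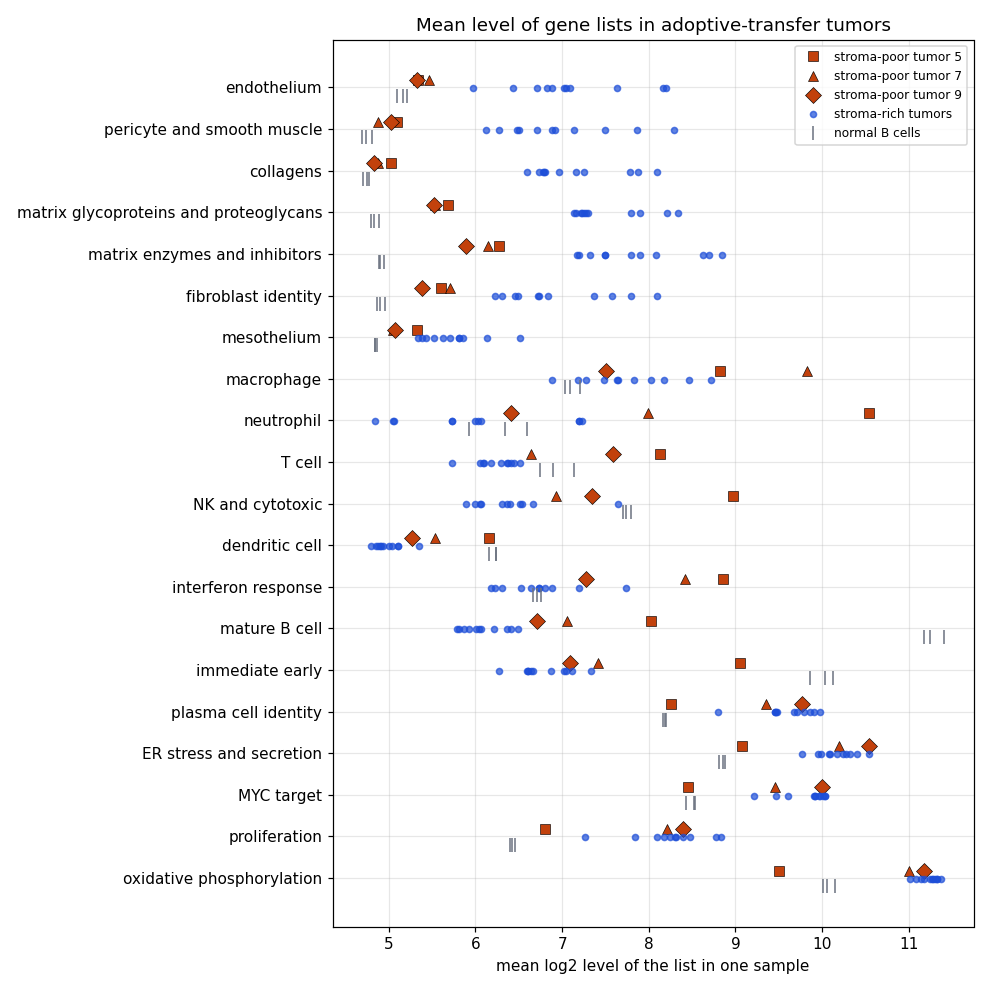
Mean log2 level of 20 gene lists in each adoptive-transfer tumor and normal sample, 1 mark per sample. The stromal lists of stroma-poor tumors 5, 7 and 9 lie left of all stroma-rich tumors, mesothelium by a narrow margin (5.32 in tumor 5, against 5.34); the leukocyte lists spread to the right with tumor 5 or 7 farthest, and tumor 5 lies left of the stroma-rich tumors in the plasma cell, secretion, MYC target, proliferation and oxidative phosphorylation lists.

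Calls among interferon response genes depended on tumors 5 and 7. Of 29 genes 13 rose and 0 fell with all 3 tumors, while 0 were called in tumors 7 and 9 alone and 1 without tumor 7. The median difference was 1.39 with all 3 tumors and 1.00 in tumors 7 and 9 alone. The list mean was 8.86, 8.42 and 7.27 in tumors 5, 7 and 9, against 6.18 to 7.74 in stroma-rich tumors, so tumor 9 lay within their range. With 107 to 111 day tumors alone 0 were called. Rsad2, the antiviral enzyme viperin, was at 12.58, 10.85 and 8.15 log2 units in stroma-poor tumors, against 5.09 to 9.41 (median 7.11) in stroma-rich tumors (3.74 ± 0.91, adjusted p = 0.0282, or 0.315 in tumors 7 and 9 alone). Ifit3, which binds viral RNA complexes, was at 12.49, 11.12 and 8.41, against 5.42 to 9.99 (3.26 ± 0.87, adjusted p = 0.043, or 0.408). For both genes tumors 5 and 7 were above all stroma-rich tumors and tumor 9 was within their range.

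The promoters of these genes are shown for a pair of GAAA separated by any 2 bases, on either strand, the core shared by many interferon-stimulated response elements. Among RefSeq promoter windows of 300 bases, 1079 of 27025 genes (3.99%) and 329 of 8577 tested genes (3.84%) held this motif. It was held by 33 of 215 higher genes (15.3%), 4 of 125 lower genes (3.2%) and 7 of 48 genes higher in tumors 7 and 9 (14.6%). Of 23 tested interferon response genes with a window, 11 held it (47.8%). These shares are descriptions with no test. The Ifit3 window lies on the plus strand at chr19:34583279-34583578 and holds 2 matches, and the Rsad2 window lies on the minus strand at chr12:26456403-26456702 and holds 1. Matches are in capitals, and appear as the reverse complement.
Ifit3: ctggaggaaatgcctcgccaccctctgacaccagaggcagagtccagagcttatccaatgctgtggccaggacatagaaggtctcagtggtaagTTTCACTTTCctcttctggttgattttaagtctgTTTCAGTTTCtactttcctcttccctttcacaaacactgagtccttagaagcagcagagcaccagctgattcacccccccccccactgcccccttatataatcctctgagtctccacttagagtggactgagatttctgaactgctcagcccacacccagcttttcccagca
Rsad2: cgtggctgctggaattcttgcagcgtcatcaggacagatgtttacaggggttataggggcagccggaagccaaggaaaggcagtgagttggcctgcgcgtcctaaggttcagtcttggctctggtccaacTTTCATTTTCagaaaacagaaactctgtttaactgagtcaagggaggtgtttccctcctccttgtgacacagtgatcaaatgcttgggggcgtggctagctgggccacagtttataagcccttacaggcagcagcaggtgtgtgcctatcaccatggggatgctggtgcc

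Lists of plasma cell identity, secretion, MYC targets, proliferation and oxidative phosphorylation gave 1 call. Of 25 plasma cell identity genes 0 rose and 1, Cav1, fell. Of 37 endoplasmic reticulum stress and secretion genes, 31 MYC target genes, 26 proliferation genes and 34 oxidative phosphorylation genes, 0 were called in either direction, with all 3 tumors or with tumors 7 and 9 alone. The plasma cell identity mean was 8.26, 9.35 and 9.77 in tumors 5, 7 and 9, against 8.80 to 9.97 in stroma-rich tumors and 8.16 to 8.20 in normal B cells. Xbp1, the transcription factor of secretion, was at 11.99, 13.68 and 13.87, against 12.58 to 14.28 (adjusted p = 0.771). Sdc1, the plasma cell surface proteoglycan CD138, was at 4.97, 7.14 and 7.20, against 5.68 to 7.93 (adjusted p = 0.489). Tumor 5 lay below the stroma-rich range for Xbp1 and Sdc1, and tumors 7 and 9 lay within it. Klra17, of the Ly49 receptor family, was at 11.53, 11.50 and 12.48, against 11.84 to 14.78 in stroma-rich tumors and 5.76 to 6.10 in normal B cells. Rsph1, a ciliary protein, was at 10.70, 11.44 and 11.34, against 10.68 to 13.01 and 4.80 to 5.11. Both genes were thus far above normal B cells in all 3 stroma-poor tumors.

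Tumor 5 stood farther from the stroma-rich tumors than the other 2. Measured against the stroma-rich mean, 1936 genes (18.3%) were at least 1 log2 unit higher in tumor 5 and 2342 (22.1%) at least 1 lower. For the mean of tumors 7 and 9 these numbers were 434 (4.09%) and 414 (3.91%). As a single tumor it has no test. Its median differences from stroma-rich tumors were -1.51 for plasma cell identity, -1.64 for proliferation and -1.66 for oxidative phosphorylation, beside -0.20 for all genes. Those of tumors 7 and 9 were 0.20, 0.06 and -0.18, beside -0.01. The neutrophil median was 4.85 in tumor 5 and 0.82 in tumors 7 and 9. Its neutrophil list mean of 10.54 was far above tumor 7 (7.99), tumor 9 (6.41) and the stroma-rich tumors (4.84 to 7.23), while its proliferation mean of 6.80 lay near normal B cells (6.40 to 6.46). Immediate early genes, transcription factors and others induced quickly on stimulation, averaged 9.05 in tumor 5, 7.41 in tumor 7 and 7.09 in tumor 9, against 6.27 to 7.33 in stroma-rich tumors. The part of cell mixture and of array quality in these differences was not tested.

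**Figure D4:**
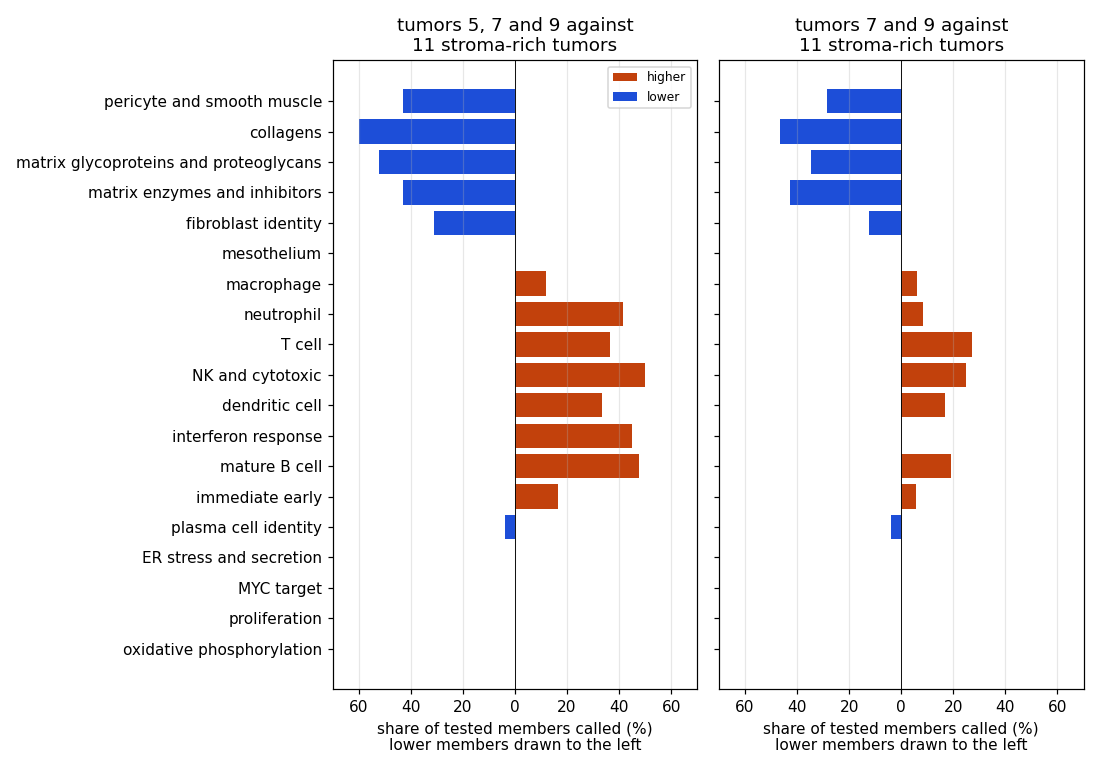
Share of each list's tested genes, including those detected in 1 group alone and the 2 markers in the matrix list, called higher (right, orange) or lower (left, blue) by limma at an adjusted p under 0.05, with all 3 stroma-poor tumors in the left panel and tumors 7 and 9 in the right. Bars of 5 stromal lists are present in both panels, while the neutrophil bar shortens and the interferon response bar, 13 of 29 on the left, is absent on the right.

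Endothelial levels also varied within the 11 stroma-rich tumors, which allowed a graded comparison without the 3 tumors. In limma 1743 genes (16.4%) had a slope on the endothelial mean, 1061 (10.0%) upward and 682 (6.43%) downward. Outside the endothelium list, whose mean is the regressor, 1722 were called, 1040 of them upward. Both this fit and the split use the stroma-rich tumors, so their values are only set side by side. Called slopes in the matrix lists were upward here, for 7 of 15 collagens, 10 of 23 matrix glycoproteins and 12 of 21 matrix enzymes, with 0 downward. The markers Dcn and Sparc were among the 10. Slopes of 18 of 34 macrophage and 8 of 12 neutrophil genes were also called upward, again with 0 downward. Col4a1 rose by 1.39 ± 0.18 log2 units per unit of endothelial mean (adjusted p = 0.00058) and fell by 4.84 in stroma-poor tumors. Fcgr1 rose by 0.94 ± 0.19 per unit (adjusted p = 0.00662) and was 2.58 higher in stroma-poor tumors. S100a9 rose by 2.43 ± 0.45 per unit (adjusted p = 0.00421) and was 4.39 higher in stroma-poor tumors. For Col4a1 the 2 fits thus went the same way, and for these 2 myeloid genes they did not. Other matrix genes that were lower in the split had no called slope, such as Mgp (0.36, limma adjusted p = 0.472), Lum (-0.10, 0.943) and Ccn2 (0.02, 0.974). Cd3e had a slope of 0.08 ± 0.21 (adjusted p = 0.834). Without tumor 1 there were 749 slope calls, and with median scaling of the arrays 202, all upward.

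The spontaneous tumors share no sample with the split. A slope on their endothelial mean called 0 of 10001 genes at an adjusted p under 0.05 in limma (lowest 0.497), and 522 (5.22%) had an unadjusted p under 0.05, 376 (3.76%) upward and 146 (1.46%) downward. On data simulated with the gene spread of the stroma-rich tumors, this fit recovered 0 of 50 genes with a slope of 2 and 21 of 50 with a slope of 3. The gene spread of the spontaneous tumors was not simulated, so these counts do not give the power of the fit on the real values. Outside the endothelium list and the 4 markers, 9601 genes were tested in both fits, of which 45.5% had an upward slope and 3.68% an upward slope at an unadjusted p under 0.05. Of the 163 of these that were lower in stroma-poor tumors, 123 had an upward slope, the sense of the split, 15 of them at that threshold. Of the 235 that were higher, 27 had a downward slope, 0 at that threshold, and 83 had an upward slope at that threshold, the other sense. Igfbp7 had a slope of 1.05 ± 0.40 (unadjusted p = 0.023, adjusted p = 0.832). Cd3e had a slope of 4.47 ± 0.93 (unadjusted p = 0.000387, adjusted p = 0.497). Of 11 T cell genes, 6 had an upward slope at an unadjusted p under 0.05, opposite in sense to the split, and none passed the adjusted threshold.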

How the data were processed

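Total RNA from frozen, ground tissue was extracted with Trizol, made into biotin-labelled cRNA and hybridised to Illumina arrays, per the labels' protocols. Per the file headers the first deposited table holds a linear probe intensity for each array, with no background subtraction. Per the file headers it also holds a detection score per probe, and 1 minus this deposited score was used as the detection p. A second deposited table holds log2 values that are quantile normalized. The submitters' processing notes name Partek, and its role is not given in the sources used here.

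Intensities of 45281 probes were corrected with neqc in limma 3.58.1 (R 4.3.3, files read by version 1.17.8 of data.table), which infers the negative controls from the detection p, adds an offset of 16 and quantile normalizes over 28 arrays. A single gene symbol was listed for 34885 probes, several for 18 and none for 10378, and 65 symbols were not found in the RefSeq gene table. Each of 19057 genes was represented by its brightest probe, and 10600 detected (p under 0.05) on at least 3 of the 14 adoptive-transfer arrays were tested. limma (lmFit, eBayes, two-sided) compared stroma-poor with stroma-rich tumors, with adjusted p-values by Benjamini-Hochberg over all genes tested. Further fits gave tumors 7 and 9 a mean apart from tumor 5, and a slope on the endothelial mean within 11 stroma-rich and within 11 spontaneous tumors (10001 genes). The split was tested on data simulated with independent genes and the stroma-rich spread in both groups. It recovered 20, 43, 48 and 50 of 50 genes changed by 1, 2, 3 and 4 log2 units, with 7 false calls among the rest of 10600 genes. The real stroma-poor arrays were less alike, with a median correlation of 0.84 among them against 0.94 among stroma-rich arrays, and this was not simulated. The number of arrays limits the precision, and chip or slide is not named in the tables.

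The members of the split and the 34 gene lists were chosen with earlier results of these data known. Named are the 8 highest and 8 lowest called genes whose groups do not overlap (leaving out clone and locus names, the endothelium list and the 4 markers), and up to 4 called genes per list. The slope part of this rule named no gene. Col1a1, Col1a2, Fn1, Vegfa, Csf3r, Adgre1, Gpnmb, Ccl3, Ccl4, Il6, Xbp1, Sdc1, Klra17 and Rsph1, and the examples given for the slopes, were chosen after their values were seen. Alternatives changed the background correction, normalization, filter, probes, arrays, weights, covariates and tumors used.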

Additional observations from a re-analysis of the deposited data

How the results depend on the processing

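No paired analysis was possible because the stroma-poor and stroma-rich tumors share no replicate number. With all 3 stroma-poor tumors (453 calls, 276 higher, 177 lower), the total was 275 with 72 lower without background correction, 89 were lower with the deposited log2 values, and 182 were higher with no filter on dim probes. All 28 arrays in the fit gave 1307 (718 higher, 589 lower), and array weights gave 2102 (1205 higher, 897 lower), with weights whose estimation stopped before convergence. Age as a covariate left 176 higher. Tumors of 107 to 111 days gave 82 calls, 0 higher and 82 lower. Leaving out each tumor in turn gave 150 to 961 calls, 59 to 608 higher and 91 to 353 lower. Leaving out tumors 1 and 5, chosen after seeing the data, gave 202 (87 higher, 115 lower).

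With tumors 7 and 9 alone (150 calls, 59 higher and 91 lower, 39.3% higher), the total was 61 with 19 lower without background correction (68.9% higher) and 61 with 20 lower for the deposited log2 values (67.2% higher). No filter gave 58 lower (52.1% higher) and the stricter filter 30 higher (25.2% higher). All 28 arrays gave 312 (161 higher, 151 lower), array weights 99 higher, and tumors of 107 to 111 days 4 higher and 153 lower. Leaving out each tumor gave 21 to 202 calls, 6 to 92 higher and 15 to 115 lower, with 21 when tumor 7 was left out.

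For the slope in stroma-rich tumors (1743 calls), median scaling gave 202, all higher, and 0 lower, and leaving out each tumor gave 749 to 1835 calls, 567 to 1116 higher and 182 to 862 lower. For the spontaneous slope (0 calls), median scaling gave 162, all higher, and leaving out each tumor gave 0 to 1. Of the 162, 23 were called with the same sense in the split after median scaling. The endothelium list and the 4 markers were not removed from these counts. Median scaling moved the median slope of all genes there to 0.52. Fewer tumors entered the 107 to 111 day and leave-one-out settings; for the other settings the cause was not tested. Of 76 called named genes outside the endothelium list and the 4 markers, 39 lost their call without tumor 5, 29 without tumor 7 and 0 without tumor 9, and 0 changed sign under the alternatives that tested them, at most 26 each. Genes not well above background in stroma-poor tumors have only a bound there.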

Other observations

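Erythroid and pancreatic transcripts did not follow the split. The erythroid list mean was 10.43, 8.73 and 8.08 log2 units in stroma-poor tumors 5, 7 and 9, against 6.76 to 9.29 in stroma-rich tumors, and 0 of its 5 tested genes were called. The exocrine pancreas mean was 4.93, 5.00 and 4.90, against 4.82 to 8.70 in stroma-rich tumors, where tumor 1 gave the highest value. Of 13 glycolysis genes 0 were called, with a median difference of 0.00. Of 20 complement and acute phase genes 1 fell, C2, a protease of the classical complement pathway, at 6.55, 6.31 and 5.67, against 7.41 to 10.46 (limma adjusted p = 0.00636).

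Cd81, a tetraspanin partner of the B cell coreceptor that many cell types carry, was at 10.50, 11.05 and 11.64 in stroma-poor tumors, against 11.95 to 12.89 in stroma-rich tumors, a difference of -1.37 ± 0.28 (adjusted p = 0.0103, or 0.114 in tumors 7 and 9 alone). Osmr, the oncostatin M receptor of stromal cells, was at 4.56, 5.36 and 5.14, against 5.88 to 8.74. Osmr was detected in 1 stroma-poor tumor and has no test for the same reason as Mylk. Ptpn6, the phosphatase SHP-1 of blood cells, was at 11.28, 9.78 and 8.50, against 6.25 to 8.59 (adjusted p = 0.0137, or 0.179 in tumors 7 and 9 alone). Itgb7, an integrin chain for homing to the gut, was at 8.85, 7.75 and 7.38, against 4.53 to 6.98 (adjusted p = 0.00621, or 0.0769 in tumors 7 and 9 alone). Of these 4 genes, Ptpn6 overlapped between the groups and the others did not.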
